A study of Mus musculus with 9 samples.

Results

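The axoneme is the microtubule scaffold of the sperm flagellum and of motile cilia. Its outer doublet microtubules carry outer and inner dynein arms, the motors that slide neighbouring doublets, and radial spokes link the doublets to a central pair of microtubules. The nexin-dynein regulatory complex ties neighbouring doublets together, and tektins and other inner proteins line the doublet wall. In the testis these genes are used mainly from late meiosis onwards, while spermatids build the flagellum. The genes described here were chosen by name alone, as all entries whose symbol begins with Cfap, Dnah, Dnai, Dnal, Rsph, Tekt or Drc, without Cfap126. This gave 62 members out of 38685 genes and loci, of which 61 are protein coding and 1, Dnah2os, is an antisense RNA inside Dnah2. Axoneme genes that the annotation lists under other names, such as Wdr66 and Maats1, were described as a separate list.

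Testis RNA was compared between 3 Prm2+/+, 3 Prm2+/- and 3 Prm2-/- males, all on a C57BL/6 background, whose age the labels do not give. The Prm2-deficient line was made by CRISPR/Cas9 editing of oocytes to lack protamine 2, which packs sperm DNA; Prm2+/- males are fertile and Prm2-/- males are infertile. RNA was taken from the whole testis after its capsule was removed and read near the 3′ end of polyadenylated transcripts (QuantSeq), and the authors deposited normalized counts. In such bulk RNA fewer cells of a type and less RNA per cell cannot be told apart.

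The counts recovered from the deposited values summed to 3629929 to 4490411 per library. The edited gene did not check the labels, since mean normalized counts of Prm2 were 33046 ± 5732 for Prm2+/+, 31891 ± 2287 for Prm2+/- and 37810 ± 4344 for Prm2-/- (SD, n = 3 each; adjusted p = 0.746 in limma for Prm2-/- against Prm2+/+), so the genotypes are those of the labels. Replicate 3 of Prm2+/+ stood apart, as it held the highest value of all 9 libraries for 23.9% and the lowest for 25.7% of the 14893 genes tested. The other libraries held the highest for 7.46% to 12.8% and the lowest for 7.65% to 11.6%. It also had the lowest recovered total, 3629929, and the fewest genes above 0, 19028 against 19873 to 20526. For 6.88% of genes it lay at least 1 log2 unit below all others, against 0.43% to 0.859% for any other library. Testicular germ cells were present in every library, with summed normalized counts of 8 elongating spermatid markers between 211449 and 232361. The 9 markers of adjoining ducts summed to 324 to 429, and Lcn5, Lcn8 and Krt18 among these markers of efferent duct and epididymal epithelium were listed at 0 in every library. Only 3 of the 9 had enough counts for a test. Between Prm2-/- and Prm2+/+, 1 of them had a log2 fold change of 4.10 and the others had -0.06 and -0.10. None was called (0), and the smallest adjusted p in limma was 0.555, but 1 of the 3 had an unadjusted p under 0.05 (0.013 in limma). The largest log2 fold change among the 3 was 1.65 between Prm2+/- and Prm2+/+ and 2.44 between Prm2-/- and Prm2+/-.

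Sequence before the RefSeq transcription start is shown first for 5 members, to let the X-box be read, the binding motif of the RFX factors that switch on ciliary genes. RefSeq gave a window around the transcription start in GRCm38.p6 for 51 of the 62 members. A loose X-box, GTNNCC and GNAAC with any 3 bases between them, read on either strand, was found in 6 members (11.8%), against 2.49% of all 27025 genes with such a window. A shorter RFX site, GTTGCC, which can lie inside an X-box, was found in 17 members (33.3%) against 14.1% of all genes. The cAMP response element TGACGTCA, which the spermatid factor CREM binds, was found in 1 member (1.96% against 2.03%), and the forkhead site GTAAACA in 4 (7.84% against 4.05%). Such a match is a description of letters, not of a bound site, and the motifs were chosen with results of these data known. The X-box lay within the 250 bases before the start in Cfap44 (tether of the inner arm dyneins), Cfap45 (doublet inner protein), Cfap206 (radial spoke), Tekt4 (tektin) and Dnah17 (outer arm dynein heavy chain), and capitals mark it in these windows. In Cfap61 the match did not lie wholly before the start.
Cfap44 (chr16:44394549-44394798, plus strand): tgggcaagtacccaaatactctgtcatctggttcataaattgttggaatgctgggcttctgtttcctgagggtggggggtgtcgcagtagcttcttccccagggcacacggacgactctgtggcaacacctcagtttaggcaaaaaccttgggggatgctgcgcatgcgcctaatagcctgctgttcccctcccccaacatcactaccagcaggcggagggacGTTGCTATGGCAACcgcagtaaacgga
Cfap45 (chr1:172520880-172521129, plus strand): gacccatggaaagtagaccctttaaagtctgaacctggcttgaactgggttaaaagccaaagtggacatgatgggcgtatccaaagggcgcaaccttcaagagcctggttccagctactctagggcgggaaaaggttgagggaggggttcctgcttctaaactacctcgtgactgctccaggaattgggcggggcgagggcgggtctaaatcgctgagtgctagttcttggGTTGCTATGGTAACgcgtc
Cfap206 (chr4:34730207-34730456, minus strand): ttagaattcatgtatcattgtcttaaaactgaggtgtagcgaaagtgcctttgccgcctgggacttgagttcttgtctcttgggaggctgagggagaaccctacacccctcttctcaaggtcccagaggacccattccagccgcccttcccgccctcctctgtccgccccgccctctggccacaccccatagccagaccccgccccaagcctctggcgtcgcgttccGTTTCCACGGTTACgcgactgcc
Tekt4 (chr17:25471340-25471589, plus strand): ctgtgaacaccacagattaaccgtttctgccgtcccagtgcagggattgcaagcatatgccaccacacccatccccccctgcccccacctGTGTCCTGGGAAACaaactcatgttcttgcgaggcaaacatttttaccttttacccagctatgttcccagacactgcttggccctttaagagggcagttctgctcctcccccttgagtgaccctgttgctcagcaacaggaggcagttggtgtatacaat
Dnah17 (chr11:118129220-118129469, minus strand): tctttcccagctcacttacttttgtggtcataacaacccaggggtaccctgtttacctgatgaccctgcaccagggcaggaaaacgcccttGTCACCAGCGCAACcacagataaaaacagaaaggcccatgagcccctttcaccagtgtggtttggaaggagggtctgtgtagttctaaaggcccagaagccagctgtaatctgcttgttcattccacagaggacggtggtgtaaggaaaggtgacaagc
The first base of the motif stood 27, 19 and 23 bases before the start in Cfap44, Cfap45 and Cfap206. In Tekt4 and Dnah17 it stood 160 and 159 bases before it. All these starts are those of RefSeq. By GENCODE M21 the windows of Cfap45, Tekt4 and Dnah17 lie inside the gene, with 5′ ends at chr1:172520801, chr17:25454615 and chr11:118130634. These 5 genes did not share a level. Over the 9 libraries, Cfap206 averaged 3470 normalized counts, Tekt4 904, Cfap45 787, Cfap44 232 and Dnah17 31.9. These counts come from reads near the 3′ end and were not divided by transcript length.

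Of the 62 members, 56 had enough counts for a test in limma and 6 had not. The 6 were Dnah5 and Dnah11 (outer arm heavy chains), Cfap99 (listed here with the central apparatus), Rsph4a (radial spoke head), Cfap73 (inner arm docking) and Dnah2os. Rsph4a was at 0 in every library, which allows up to 3 counts in each, while its paralog Rsph6a, the radial spoke head protein of sperm, averaged 393 normalized counts. Among the outer arm heavy chains Dnah8 stood above its paralogs. Divided by the length of the longest transcript, Dnah8, a heavy chain of the sperm outer arm, averaged 76.0 normalized counts per kb, and Dnah17, its partner in sperm, 2.13, or 0.892 without replicate 3 of Prm2+/+. Dnah9, Dnah5 and Dnah11, heavy chains best known from motile cilia, averaged 2.50, 0.43 and 0.03 per kb. Since the method reads mostly the transcript end, counts may depend little on length, and the division can place long transcripts too low. Undivided, Dnah8 averaged 1269 normalized counts, Dnah9 34.5, Dnah17 31.9, Dnah5 6.66 and Dnah11 0.43. Dnah17 and Dnah9 cannot be ranked from either.

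The highest levels per kb belonged to Rsph1, the radial spoke head protein, with 4925, followed by Cfap206 with 1545, Cfap36 with 1174 and Tekt1 with 948. Undivided means also put these genes highest, in the same order, with 5865, 3470, 1953 and 1372 normalized counts. The libraries of Prm2+/+ read Rsph1 at 5573, 5297 and 7173 normalized counts, with 5486, 5181 and 5005 in Prm2+/-, and 6634, 6180 and 6259 in Prm2-/-. All 3 Prm2-/- libraries lay above the 3 Prm2+/- libraries and among the Prm2+/+ libraries. Together the 62 members took between 0.746% and 0.801% of the counts of a library, with the lowest share in replicate 1 and the highest in replicate 3 of Prm2+/+. The members lie on 16 chromosomes, and 32 overlap another gene of GENCODE M21, most of them only on the opposite strand. Reads could be shared between neighbours on the same strand, as in Dnah2, Dnah6, Dnah7a, Drc1, Cfap97 and Cfap43. For the opposite strand this depends on whether counting used the strand, which was not examined.

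The first comparison asked whether the axoneme genes differ between Prm2-/- and Prm2+/+ testes. No member was called (0 higher, 0 lower) by limma, which asked for an adjusted p under 0.05 together with more than 0.5 in log2 fold change (LFC), where 0.154% of all genes tested were called higher and 0.0269% lower. The smallest adjusted p of a member was 0.618. At an unadjusted p under 0.05, 4 of the 56 members (7.14%) passed, against 7.33% of all genes. This count was 0 without replicate 3 of Prm2-/-, 1 without replicate 1 of Prm2+/+, and 2 without replicate 1 of Prm2+/- or replicate 1 or 2 of Prm2-/-. It was 3 without replicate 2 or 3 of Prm2+/-, and 5 without replicate 2 or 3 of Prm2+/+. The edgeR quasi-likelihood test on the recovered counts called 0 members (0.134% of all genes higher, 0.0269% lower), with 2 at an unadjusted p under 0.05 (6.91%). DESeq2 called 0 (0.592% and 0.205%), with 4 at an unadjusted p under 0.05 (5.56%). The median LFC of the members was 0.02, as it was over all genes (0.02). The fitted difference was above 0 for 33 members and below 0 for 23.

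How small a change these data could have shown is given by the interval of each difference. For 40 of the 56 members (71.4%) the 95% interval of the LFC between Prm2-/- and Prm2+/+ lay within 1 log2 unit on either side of 0, against 61.7% of all genes. Dnah8 had an LFC of 0.01 with an interval of -0.29 to 0.30, Dnah14, an inner arm heavy chain, -0.11 (-0.34 to 0.13), and Cfap206 -0.07 (-0.27 to 0.12). For these abundant genes a change of 1 log2 unit lay outside the interval. In the remaining 16 members the interval reached past 1 log2 unit on at least 1 side, as for Dnah10 (0.10 to 1.14), and the widest was that of Cfap161 (-8.08 to 3.18).

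**Figure D1:**
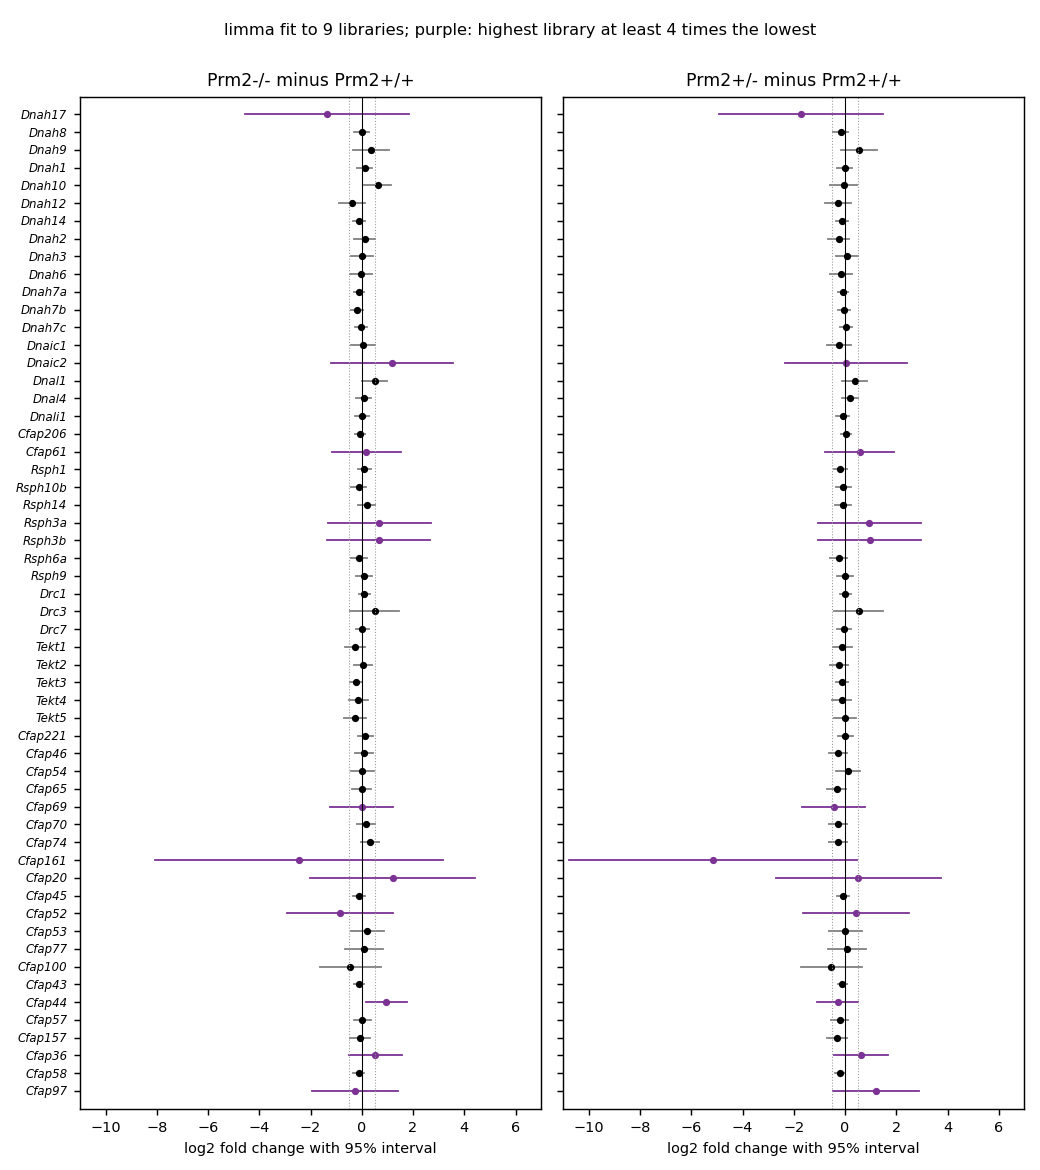
Log2 fold changes (x axis) of the 56 tested axoneme genes (y axis, grouped by role) for Prm2-/- against Prm2+/+ (left) and Prm2+/- against Prm2+/+ (right), as limma estimates with 95% intervals; dotted lines mark 0.5 on either side of 0. Both panels share the 3 Prm2+/+ libraries, purple marks the 12 genes whose highest library was at least 4 times the lowest, and the widest interval is that of Cfap161.

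Among the dynein heavy chains, Dnah10 had the smallest adjusted p. Dnah10 (ENSMUSG00000038011, chr5:124725085-124834308, plus strand, GRCm38) encodes a heavy chain of the double-headed inner arm. Its normalized counts were 22.8, 32.1 and 32.0 in Prm2+/+, 27.7, 35.6 and 21.2 in Prm2+/-, and 42.6, 46.7 and 44.4 in Prm2-/-. Every Prm2-/- library lay above the other 6 libraries, and the LFC against Prm2+/+ was 0.62 (standard error, SE, 0.23, limma adjusted p = 0.618), which did not pass. Dnah2, the other heavy chain of that arm, had 136, 175 and 227 in Prm2+/+ and 202, 183 and 188 in Prm2-/-, so that the groups overlapped. Dnah12, a single-headed inner arm chain, had 225, 304 and 260 in Prm2+/+ and 182, 218 and 202 in Prm2-/-. The groups did not overlap, and the LFC was -0.38 (SE 0.22, limma adjusted p = 0.734). Dnah7a, of the same class, had 343, 325 and 323 in Prm2+/+ against 312, 298 and 307 in Prm2-/-, a gap that was small (LFC -0.11, SE 0.08, limma adjusted p = 0.753). Dnah7a, Dnah7b and Dnah7c share between 30.3% and 38.8% of their 50-base words, so reads could be split among them. In the last 500 bases Dnah7a shares 48.8% with Dnah7c and 19.1% with Dnah7b, and Dnah7b shares 27.9% with Dnah7c. Dnah1, an inner arm chain needed for a full-length sperm flagellum, was level, with 140 to 176 in Prm2+/+ and 162 to 195 in Prm2-/-.

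Over all tested members, the 3 Prm2-/- libraries lay above the 3 Prm2+/+ libraries for 2 members, Cfap44 and Dnah10, where 6.92% of all genes did so. They lay below for 3 members, Dnah12, Dnah7a and Cfap58, where 7.1% of all genes did so. Cfap58, a flagellar assembly protein, had 332, 374 and 354 in Prm2+/+ and 313, 331 and 327 in Prm2-/- (LFC -0.12, SE 0.09, limma adjusted p = 0.754). Dnah5, too low for a test, had 7.60, 7.50 and 14.4 in Prm2+/+ and 5.43, 7.10 and 5.28 in Prm2-/-.

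The largest rise between groups that did not overlap was that of Cfap44, which tethers the inner arm dynein motors to the doublet. Cfap44 (ENSMUSG00000071550, chr16:44394796-44482428, plus strand, GRCm38) is the member whose upstream sequence holds an X-box 27 bases before the start. Its normalized counts were 136, 204 and 208 in Prm2+/+, 158, 208 and 95.4 in Prm2+/-, and 389, 235 and 452 in Prm2-/-. The Prm2-/- libraries were the 3 highest of the 9, with replicate 2 close to the controls. The LFC against Prm2+/+ was 0.94 (SE 0.35, unadjusted p = 0.0262, limma adjusted p = 0.62), so the rise did not pass over all genes. Cfap43, its partner in the tether, differed little between libraries, with 799 to 877 in Prm2+/+, 772 to 823 in Prm2+/- and 742 to 834 in Prm2-/-. The nearest tested gene to Cfap44, Boc, lay 2621 bases away and had 74.3, 94.4 and 61.2 in Prm2-/- against 79.8, 65.4 and 35.4 in Prm2+/+.

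No tektin, filament proteins of the doublet wall, and no dynein light or intermediate chain separated Prm2-/- from Prm2+/+. Tekt1 stood at 1349, 1306 and 1840 in Prm2+/+ and at 1014, 1243 and 1453 in Prm2-/-. Tekt3 had 659, 633 and 737 in Prm2+/+ and 538, 634 and 558 in Prm2-/-, an overlap of 1 library (LFC -0.23, unadjusted p = 0.0434, limma adjusted p = 0.669). Of the 5 tektins, 4 had a fitted difference below 0, between -0.27 and -0.14, and Tekt2 one of 0.06. Replicate 3 held the highest Prm2+/+ value of all 5 tektins, with 359 for Tekt2, 1229 for Tekt4 and 845 for Tekt5. Dnal1, a light chain of the outer arm, had 75.1, 120 and 87.3 in Prm2+/+, 105, 147 and 114 in Prm2+/-, and 112, 147 and 138 in Prm2-/- (LFC against Prm2+/+ 0.51, unadjusted p = 0.0441, limma adjusted p = 0.669). Dnali1, the inner arm light chain, had 1110 to 1499 over all 9 libraries. The intermediate chain Dnaic1 had 242 to 325 in Prm2+/+, 186 to 280 in Prm2+/- and 226 to 311 in Prm2-/-.

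In the nexin-dynein regulatory complex, Drc1 had 270, 285 and 281 in Prm2+/+ and 311, 281 and 299 in Prm2-/-, and Drc7 stayed between 106 and 122 in all 9 libraries. Drc3 was at 446 to 499 in 8 libraries and at 146 in replicate 3 of Prm2+/+. Its LFC of 0.50 between Prm2-/- and Prm2+/+ became -0.07 without that library. In the radial spokes, Rsph9 had 342 to 430 in Prm2+/+ and 362 to 449 in Prm2-/-, and Rsph6a 392 to 491 and 346 to 442. In the central apparatus, Cfap65 had 506 to 705 in Prm2+/+ and 527 to 599 in Prm2-/-, and Cfap221 114 to 138 and 129 to 152. None of these groups was separated.

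**Figure D2:**
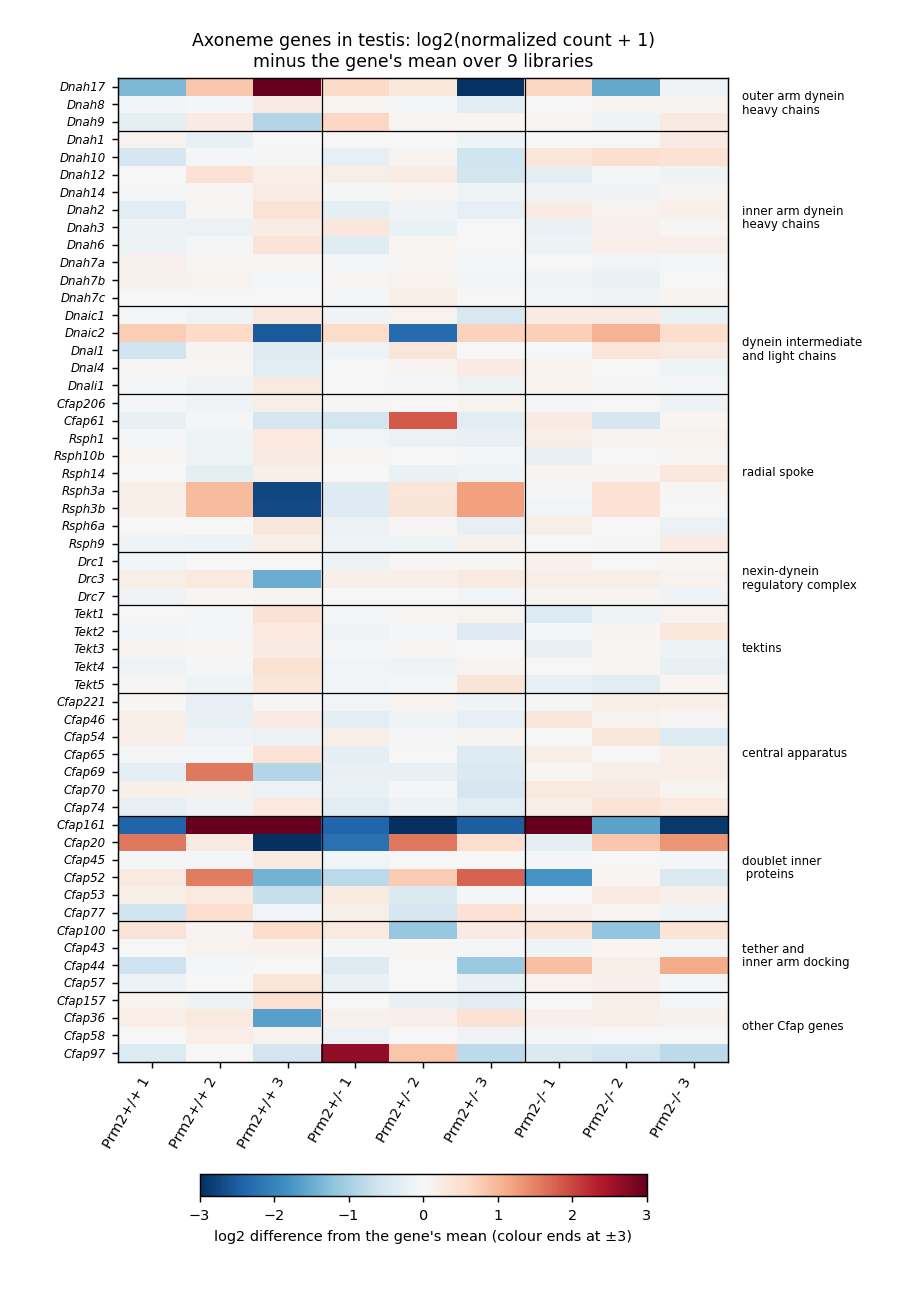
Each row is 1 of the 56 tested axoneme genes and each column 1 library; colour gives log2 of the normalized count plus 1, minus the mean of that gene over 9 libraries, and ends at 3 on either side. Most rows are pale in all columns, and the strong colours are single libraries of genes such as Cfap161, Dnah17, Rsph3a and Rsph3b, with replicate 3 of Prm2+/+ among them.

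The second comparison asked whether loss of 1 Prm2 allele was accompanied by a difference. Between Prm2+/- and Prm2+/+, 0 members were called in either direction (limma; 0.0604% of all genes were higher and 0.0201% lower), the smallest adjusted p was 0.842, and 0 members had an unadjusted p under 0.05, against 4.24% of all genes. Limma fits without 1 library gave 0 to 3 such members, except 5 without replicate 2 of Prm2+/+. The edgeR test called 0 members (0.047% of all genes higher, 0.0201% lower) with 2 at an unadjusted p under 0.05 (4.1%), and DESeq2 called 0 (0.157% in each direction) with 1 (3.0%). The median LFC was -0.08, against 0.01 over all genes, and 36 of the 56 members (64.3%) were below 0, against 48.1% of all genes. The median was -0.14, -0.11 and -0.05 without replicates 1, 2 and 3 of Prm2+/+. The Prm2+/- libraries lay above all Prm2+/+ libraries for 0 members (4.88% of all genes) and below them for 2, Dnah7a and Cfap58 (4.56%). The only call under any alternative was Cfap161, lower in Prm2+/- by DESeq2 on 6 libraries (0.145% of all genes), and its values are given with the uneven genes.

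The third comparison set Prm2-/- against Prm2+/-, which share no library, although each was also set against the same Prm2+/+ libraries above. Here 0 members were called higher or lower (limma; 0.148% and 0.0269% of all genes), with a smallest adjusted p of 0.711. At an unadjusted p under 0.05, 6 members (10.7%) passed, against 5.44% of all genes, and 8 did by edgeR (5.16%) and 7 by DESeq2 (4.12%). Neither tool called a member (0), while edgeR called 0.128% of all genes higher and 0.0269% lower, and DESeq2 0.48% and 0.129%. Groups did not overlap for 10 members. Prm2-/- was higher for 9 of them (16.1% of the 56, against 7.47% of all genes) and lower for 1, Cfap206 (7.25%). The 9 were Cfap44, Cfap46, Cfap69, Cfap70, Cfap74, Dnah2, Dnah10, Rsph1 and Rsph14, of which some were named after their values were seen. Of these, Cfap46, Cfap69, Cfap70 and Cfap74 are placed in the central apparatus, a class taken up after these values were seen. In it 6 of 7 tested members had a difference above 0, but these genes are among the 6, so the count is no separate evidence. Other classes ran from 1 of 5 (tektins) to 4 of 5 (dynein intermediate and light chains). The median LFC of the central apparatus was 0.37 here, -0.28 between Prm2+/- and Prm2+/+, and 0.10 between Prm2-/- and Prm2+/+. For Cfap74 the values were 129, 145 and 130 in Prm2+/- and 185, 216 and 200 in Prm2-/-. Its Prm2+/+ libraries read 138, 151 and 200 and thus overlapped both groups (LFC of Prm2-/- against Prm2+/- 0.57, SE 0.15, unadjusted p = 0.00613, limma adjusted p = 0.711). Rsph1 had an LFC of 0.28 (SE 0.11, limma adjusted p = 0.887); DESeq2 on 6 libraries gave an adjusted p of 0.00275 for it, with an LFC below the threshold of 0.5. The median LFC of all members was 0.08, against -0.01 over all genes, and fell to 0.04 without replicate 1 of Prm2+/- and to 0.05 without replicate 1 of Prm2-/-. Replicate 3 of Prm2+/- held the lowest of the 9 values for 16 members (28.6%), against 11.6% of all genes. With that library left out, 4 members had an unadjusted p under 0.05, and the LFC was 0.93 for Cfap44 (1.23 with it), 0.32 for Cfap70 (0.45) and 0.49 for Dnah10 (0.67). Dropping Prm2-/- replicate 1 or 2 left 3 members under that unadjusted p. Dropping Prm2-/- replicate 3 or Prm2+/- replicate 1 gave 5, and dropping Prm2+/- replicate 2 gave 6. The 9-library limma fit also takes its spread from the Prm2+/+ libraries. Dropping Prm2+/+ replicate 1 or 2 gave 7, and dropping its replicate 3 gave 9 (smallest limma adjusted p 0.144). On only the 6 libraries compared, limma gave 9 (16.4%, against 7.45% of all genes) and DESeq2 9 (15.5%, against 4.6%), with 0 called.

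The members fell apart by how evenly the 9 libraries read them. In 44 of the 56 the highest library was under 4 times the lowest, a limit chosen after the values were seen. In these even members the ratio of highest to lowest ran from 1.15 to 3.42, with a median of 1.51, and the median coefficient of variation was 13.9%. Their fitted LFC between Prm2-/- and Prm2+/+ lay between -0.45 and 0.62. Replicate 3 of Prm2+/+ was the highest of the 9 libraries for 19 of the 44. Its median deviation from the mean of a gene over all libraries was 0.22 on the log2 scale, while the other 8 libraries had medians between -0.07 and 0.06. Over all 56 members, which include those that this library read far lower, its median was 0.14, and over all 14893 genes tested it was 0.01. Its summed elongating spermatid markers, 221963, lay inside the range of the other libraries. Its spermatocyte markers summed to 4369, the lowest of the 9, where the others had 5140 to 6284. Its round spermatid markers (6620) and Sertoli cell markers (3220) were the highest of the 9, where the others had 5594 to 6474 and 2406 to 3008. What part this had in the deviation was not tested.

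**Figure D3:**
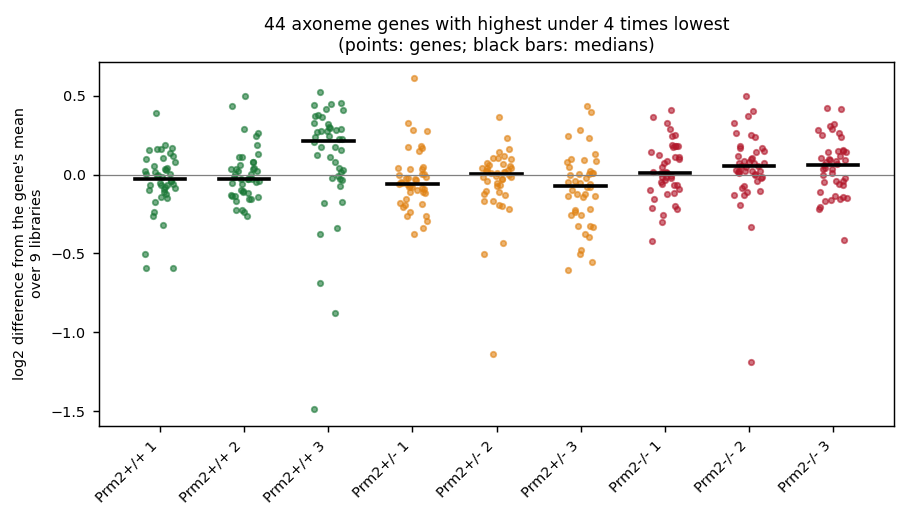
Each point is 1 of 44 axoneme genes whose highest library was under 4 times the lowest, placed by library (x axis) and by log2 difference from its own mean over 9 libraries (y axis); black bars are medians. Replicate 3 of Prm2+/+ has a median of 0.22 (0.14 over all 56 members), and the other 8 libraries lie between -0.07 and 0.06.

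The other 12 members (21.4%, against 22.7% of all genes) were uneven. In Cfap44, described above, the 3 Prm2-/- libraries were the highest. In the other 11, values of the genotypes overlapped between Prm2-/- and Prm2+/+. Cfap161, an inner protein of the doublet (ENSMUSG00000011154, chr7:83774101-83794880, minus strand, GRCm38), was present at 2 levels. It had 477 and 508 normalized counts in replicates 2 and 3 of Prm2+/+ and 418 in replicate 1 of Prm2-/-, and 0.91 to 4.06 in the other 6 libraries, which included all 3 of Prm2+/-. Against Prm2+/+ its LFC was -5.15 in Prm2+/- (SE 2.44, limma adjusted p = 0.842) and -2.45 in Prm2-/- (adjusted p = 0.796). DESeq2 on the 6 libraries of Prm2+/- and Prm2+/+ gave -7.73 with an adjusted p of 8.4e-05. DESeq2 on all 9 gave no adjusted p for this gene, and the edgeR test on all 9 gave 0.962. With 1 library left out in turn, the limma LFC ranged from -7.62 to -3.89 in Prm2+/- (without replicates 1 and 3 of Prm2+/+) and from -4.92 to -0.95 in Prm2-/- (without replicate 1 of Prm2+/+ and replicate 3 of Prm2-/-).

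Cfap20, at the inner junction of the doublet, ran from 8.84 in replicate 3 of Prm2+/+ to 347 in replicate 2 of Prm2+/-. It had 345, 138 and 8.84 in Prm2+/+, 23.7, 347 and 163 in Prm2+/-, and 95.1, 204 and 290 in Prm2-/-. Its LFC of 1.20 between Prm2-/- and Prm2+/+ became -0.29 without replicate 3 of Prm2+/+. Dnah17 showed the reverse, with 180 in replicate 3 of Prm2+/+ and between 0.88 and 24.6 in the other 8 libraries. Cfap52, an inner junction protein named after its values were seen, had 16.6 to 137 in Prm2+/+, 25.7 to 157 in Prm2+/- and 12.7 to 47.7 in Prm2-/-.

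Rsph3a and Rsph3b, copies of a radial spoke stalk gene on chromosome 17, had the same profile. Rsph3a (chr17:7945614-7979824, plus strand, GRCm38) had 452, 777 and 59.7 in Prm2+/+, 306, 521 and 949 in Prm2+/-, and 387, 545 and 410 in Prm2-/-. Rsph3b (chr17:6904413-6948682, minus strand) had 433, 759 and 58.6, then 299.6, 514 and 925, then 371, 528 and 394. The ratio of Rsph3a to Rsph3b stayed between 1.01 and 1.04 in all 9 libraries. Their transcripts share 74.0% of the 50-base words of Rsph3a, and 84.9% in its last 500 bases, where a 3′ method reads, so the counts of the copies cannot be told apart and stand for 1 measurement. Without replicate 3 of Prm2+/+ their LFCs between Prm2-/- and Prm2+/+ turned from 0.67 and 0.66 to -0.42 and -0.43.

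In the remaining uneven genes 1 or 2 libraries lay apart from the others. Dnaic2, an intermediate chain of the outer arm, had 18.8 in replicate 3 of Prm2+/+ and 21.9 in replicate 2 of Prm2+/-, against 165 to 234 in the other 7. Cfap36 had 590 in replicate 3 of Prm2+/+ against 2003 to 2477 elsewhere. Both low Dnaic2 values and that of Cfap36 lay far from the other libraries of their own genotype. Cfap69, of the central apparatus, had 869 in replicate 2 of Prm2+/+ against 156 to 331, and Cfap61, of the radial spoke, 81.3 in replicate 2 of Prm2+/- against 14.8 to 26.3. Cfap97, named after its values were seen, had 1246 and 348 in replicates 1 and 2 of Prm2+/- against 113 to 199. Its LFC between Prm2+/- and Prm2+/+ was 1.21 (SE 0.73, limma adjusted p = 0.842), the largest rise of any member in that comparison, and it was 0.33 without replicate 1 and 2.05 without replicate 3 of Prm2+/-. Replicate 3 of Prm2+/+ read at least 1 log2 unit below all other libraries in 5 members (8.93%), against 6.88% of all genes. These include both Rsph3a and Rsph3b, which stand for 1 measurement.

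**Figure D4:**
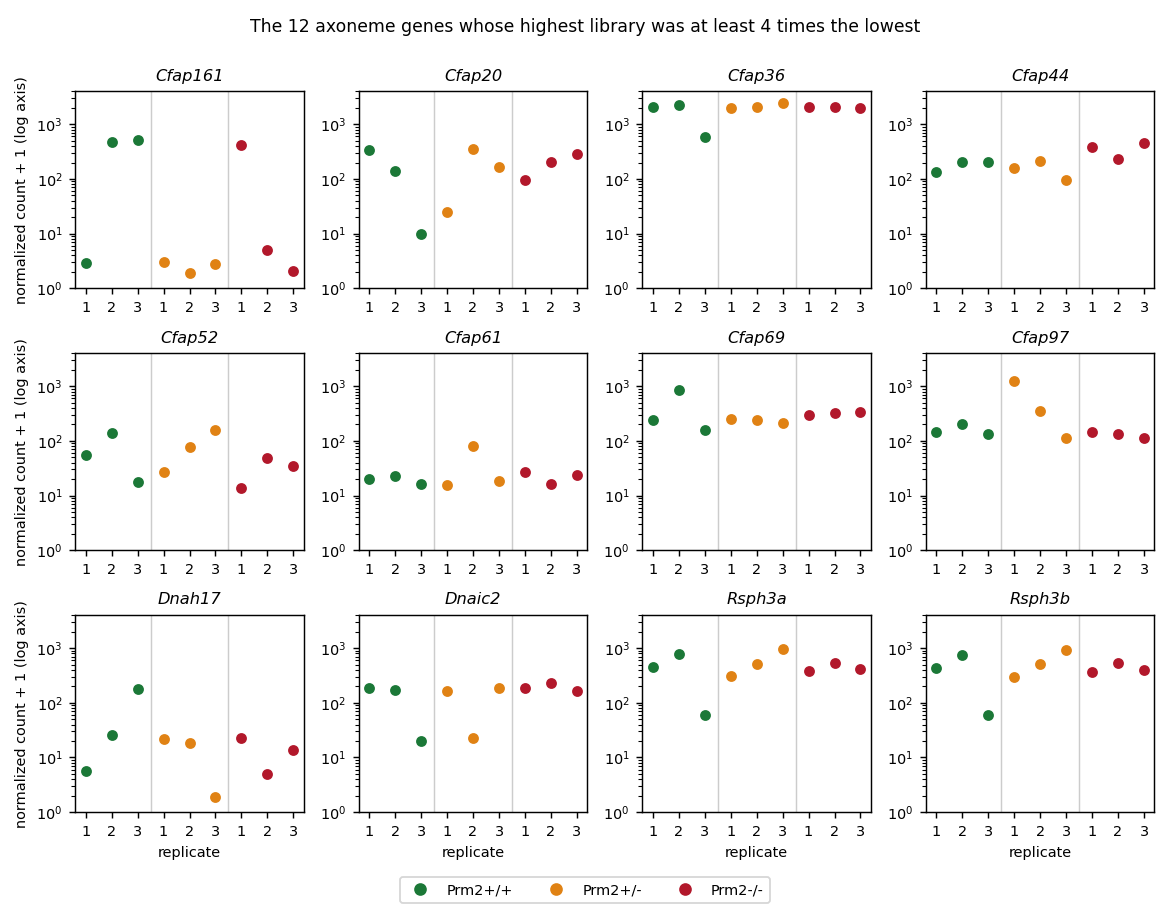
Normalized count plus 1 (log axis) of the 12 uneven axoneme genes in each replicate (x axis: 1 to 3 within Prm2+/+, Prm2+/- and Prm2-/-, separated by grey lines). High and low libraries occur within the same genotype, as for Cfap161 with 3 libraries between 418 and 508 and 6 at or under 4.06, and Rsph3a and Rsph3b have the same profile.

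For each of the 12 uneven members the nearest tested gene was examined, a check made after the values were seen. In 2 of the 12 the neighbour's highest library was at least 4 times its lowest, as it was for 22.7% of all genes, and in 10 it was not. Next to Cfap52, Stx8 lay 542 bases away and had 288 to 344. Next to Cfap36, Ppp4r3b lay 735 bases away and had 442 to 673. Its lowest value was also in replicate 3 of Prm2+/+. The 2 uneven neighbours were Csnk2a2, 11227 bases from Cfap20, with 35.3 to 394, and Pgs1, which overlaps Dnah17 on the opposite strand. Csnk2a2 had 333, 394 and 308 in Prm2-/-, above 52.3 to 250 in Prm2+/+ and 35.3 to 82.2 in Prm2+/-. Of all genes, 6.92% had Prm2-/- libraries all above those of Prm2+/+. Pgs1 had 9.06 in replicate 1 of Prm2-/- and 129 to 193 in the other 8, a different library from the one in which Dnah17 was high.

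Axoneme genes with other names were taken from a list of 68, of which 60 were in the table and 59 were tested. Between Prm2-/- and Prm2+/+ 0 were called in limma, 10 (16.9%) had an unadjusted p under 0.05, against 7.33% of all genes, and the smallest adjusted p was 0.343. They had a median LFC of 0.01, with 31 above and 28 below 0, and their summed normalized counts were 60574 to 63622 in Prm2+/+, 59019 to 63323 in Prm2+/- and 59570 to 63366 in Prm2-/-, ranges that overlapped. Between Prm2+/- and Prm2+/+ 0 were called, 4 (6.78%) had an unadjusted p under 0.05, against 4.24% of all genes, and the median LFC was -0.05. Between Prm2-/- and Prm2+/- 0 were called in limma (smallest adjusted p 0.296), 7 (11.9%) had an unadjusted p under 0.05, against 5.44% of all genes, and the median LFC was 0.00. Of 16 transcription regulators of cilia and spermatids, 13 were tested and 0 were called in Prm2-/- against Prm2+/+, with 0 at an unadjusted p under 0.05. Mcidas, a switch for multiciliated cells, was listed at 0 in every library.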

How the data were processed

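RNA of 9 testes was analysed. The authors trimmed reads (Trim Galore 0.4.5, per the labels), used HISAT2 2.1 for mapping against GRCm38 and StringTie 1.3.3 for transcript levels, derived gene counts from coverage and removed pseudogenes. What the authors deposited is a signal, normalized counts, in which every count was divided by the size factor of its sample. In each sample 100% of values came out as whole numbers of 1 smallest step (tolerance 1e-06), so counts were recovered. For replicate 1 of Prm2+/- this is a weaker sign, as its step is near 1. The recovered totals of 3629929 to 4490411 set the precision, and limits from counts of 0 cover counting error only. All 9 columns were mapped to samples (0 were not).

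The values plus 1 were taken to log2 and tested with limma (lmFit, then eBayes with a trend), over the 14893 genes kept by filterByExpr, with all 9 samples and genotype as the only term. LFCs are on that scale, which understates changes of low genes. Adjusted p-values are Benjamini-Hochberg over all genes tested. The edgeR quasi-likelihood test and DESeq2 on the recovered counts, other pseudocounts, filters, scalings, a replicate block and leaving out each sample were alternatives. The scripts were tested on simulated data. Genes were named if they passed in any of these tools, if Prm2-/- and Prm2+/+ did not overlap (the 5 largest rises and 5 largest falls), if they had the 5 widest ranges, the highest mean of a role class, or a known place in sperm flagellum defects. Others were named after their values were seen. The members and lists were chosen with earlier results of these data known. The labels call the males biological replicates, and p-values measure the spread between these samples. Positions are from GENCODE M21. Tests ran in R 4.3.3 (DESeq2 1.42.0, edgeR 4.0.16, limma 3.58.1) and summaries in Python 3.11.15 (matplotlib 3.10.9, pandas 2.3.3, numpy 2.4.6).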

Additional observations from a re-analysis of the deposited data

How the results depend on the processing

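Each of 32 results was recomputed under up to 19 alternatives. Of the values so obtained, 594 kept their direction and their side of the threshold, or stayed within the spread between libraries. Under DESeq2 on the 6 libraries compared, 1 member (Cfap161) was called lower in Prm2+/- than in Prm2+/+, with an LFC of -7.73; in all other alternatives the counts of called members stayed at 0 in the 3 comparisons. Leaving out replicate 3 of Prm2+/+ turned the LFC between Prm2-/- and Prm2+/+ below 0 in 5 of the members recomputed, of which Rsph3a and Rsph3b stand for 1 measurement. Over the fits that left out 1 library each, it ranged from -0.294 to 2.27 for Cfap20, from -0.423 to 1.42 for Rsph3a, from -0.429 to 1.41 for Rsph3b, from -0.0965 to 0.868 for Cfap36 and from -0.0727 to 0.804 for Drc3, each lowest value being that without this library. With each library left out in turn, the median LFC of the members ranged from -0.05 to 0.02 for Prm2-/- against Prm2+/+, from -0.14 to -0.05 for Prm2+/- against Prm2+/+, and from 0.0381 (without replicate 1 of Prm2+/-) to 0.0862 for Prm2-/- against Prm2+/-, where it was 0.0453 without replicate 1 of Prm2-/-. No sign was seen that replicate numbers pair the samples. Deviations of same-numbered libraries correlated between -0.0365 and 0.0423, and those of differently numbered libraries between -0.0376 and 0.0456. With 3 libraries in each genotype, this cannot exclude a pairing. With the number as a replicate block, 0 members were called, and over all genes the calls for Prm2-/- against Prm2+/+ went from 23 higher and 4 lower to 14 and 1. DESeq2 on 9 libraries called 104 higher and 36 lower in that comparison. Low counts kept 6 members out of the test.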
